A study of Mus musculus with 6 samples.

Results

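The regions described here are H3K4me3 peaks that were listed in untreated mouse embryonic fibroblasts (MEFs) and had no listed counterpart after treatment with the chemical combination named 6TCF. A peak of the untreated H3K4me3 list was a member when no treated H3K4me3 peak lay within 1000 bp of it and it overlapped no peak of either input list. Mitochondrial peaks and peaks over 7000 bp were left out. Of 17168 untreated H3K4me3 peaks, 784 had no treated peak within that distance. Of these, 4 were mitochondrial, 10 were over 7000 bp and 7 overlapped an input peak, which left 763 members. The members were thus chosen by the listed H3K4me3 positions and widths of both conditions, and every H3K4me3 value below is a description with no test.

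MEFs are primary connective-tissue cells grown from embryos, here of the C57BL/6 strain. One group had been exposed to 6TCF for 6 days and the other was an untreated control on day 6. The labels give 1 growth protocol for all libraries, in which fibroblasts were plated in serum medium and moved the next day to a medium with serum and basic fibroblast growth factor. The labels used here do not say what 6TCF is made of or how many embryos lie behind a library. H3K4me3 and H3K27me3 were profiled by ChIP-seq, in which DNA bound to a marked histone is precipitated with an antibody and sequenced. With input DNA, sheared chromatin that was not precipitated, there were 6 libraries, 1 per group. No difference between conditions therefore has a replicate check, and no p-value is given. The antibody field of the labels names H3K4me2 and H3K4me1 for the libraries titled H3K4me3 and H3K27me3, and the titles were followed.

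Trimethylation of histone H3 at lysine 4 is placed mainly by SET1 and MLL complexes around the start sites of active or poised genes, and most such promoters are rich in CpG. Wide H3K4me3 domains have been linked to genes that define a cell type, while narrow peaks are found at weaker promoters and at some enhancers. Trimethylation at lysine 27 is placed by Polycomb repressive complex 2 and goes with silent developmental genes. Promoters that carry both marks are called bivalent.

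The deposited lists give positions in the mouse build mm9 and no height, score or read number. Width, the length of a peak from its first to its last base, is the only quantity per peak, and depth is unknown. The H3K4me3 lists held 18185 treated and 17168 untreated peaks, and the H3K27me3 lists held 821 treated and 1242 untreated peaks. A region without a listed peak may still carry the mark below the calling threshold. The gene table used here is of another build, so members are named by position, and fibroblast marker genes were not checked. Brackets after a share hold its 95% Wilson interval, which covers counting error alone and takes each peak as independent.

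The members were few and mostly narrow. Under the same filters on width, mitochondria and input, 763 of 16910 untreated peaks were members, which is 4.51%. In the reverse direction 1788 of 17943 treated peaks had no untreated peak within 1000 bp, which is 9.96%; these are called treated-only peaks below. With both lists held to the same number of widest peaks the numbers were 1121 members and 1176 treated-only peaks. This cut removed the 1017 narrowest treated peaks. Lists of equal length leave similar unpaired numbers when most peaks pair off, so the cut cannot tell where the imbalance came from. The members ranged from 353 to 6667 bp with a median width of 829 bp and quartiles of 675.5 and 1099 bp. Untreated peaks that had a treated partner, called shared peaks below, had a median of 2164 bp and quartiles of 1439 and 3007 bp. The members covered 0.797 Mb, or 1.99% of the length of all untreated H3K4me3 peaks. Of the members 525 (68.8%) were at most 1000 bp wide, against 10.9% of shared peaks. Only 45 members (5.90%) were over 2000 bp and 13 (1.70%) were over 4000 bp, against 56.2% and 9.70% of shared peaks.

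The share of untreated peaks that were members fell steeply with width and was higher again in the widest class. It was 50.7% (39.1 to 62.3) of 67 peaks of up to 500 bp, 33.3% (30.1 to 36.7) of 777 peaks of over 500 to 750 bp, and 16.2% (14.3 to 18.1) of 1436 peaks of over 750 to 1000 bp. It was 5.09% (4.33 to 5.98) over 1000 to 1500 bp and 1.95% (1.49 to 2.53) over 1500 to 2000 bp. The lowest share was 0.359% (0.189 to 0.681) in the class of over 3000 to 4000 bp, with 9 of 2506 peaks. In the class of over 6000 to 7000 bp, 5 of 170 peaks were members, or 2.94% (1.26 to 6.70). Above the width limit of the rule, 10 of 108 peaks (9.26%) had no treated peak within 1000 bp.

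Among treated peaks the share also fell with width above 750 bp and was higher again in the widest class, but it differed in size among narrow peaks. It was 0.531% (0.227 to 1.24) over 4000 to 5000 bp and 1.44% (0.395 to 5.09) over 6000 to 7000 bp, with 2 of 139 peaks. Treated-only peaks made up 62.7% (59.4 to 65.8) of the class of over 500 to 750 bp and 44.3% (41.8 to 46.8) of that of over 750 to 1000 bp. Over 1000 to 1500 bp the share was 12.5% (11.4 to 13.8). The intervals of both directions were apart in these 3 classes. They overlapped up to 500 bp, over 1500 to 2000 bp, where the treated-only share was 2.15% (1.71 to 2.70), and in every wider class. Depth and the calling threshold are not known for either library, and their part in these shares was not tested.

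**Figure D1:**
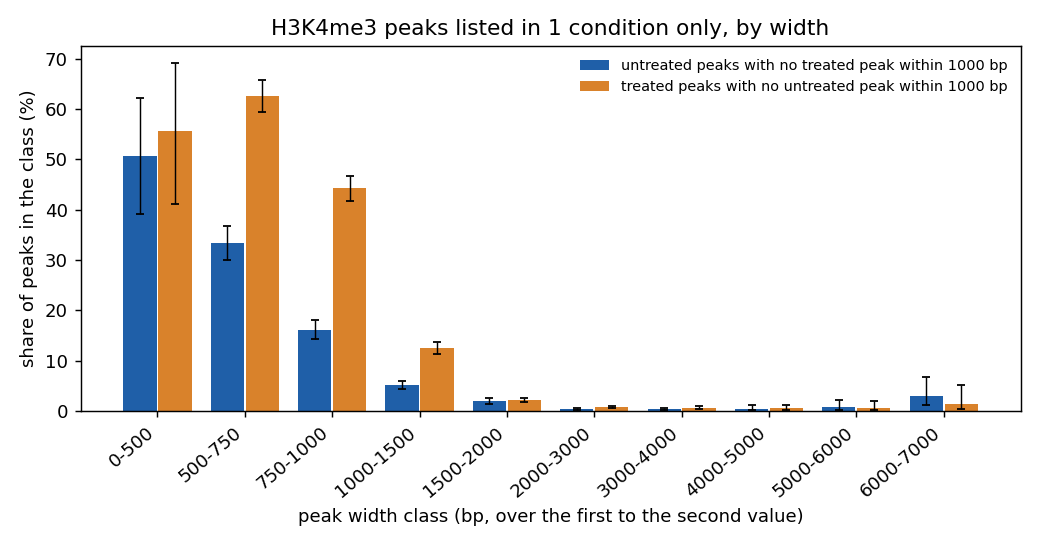
Share of H3K4me3 peaks with no peak of the other condition within 1000 bp (y axis, percent of the class) by peak width (x axis, bp) for untreated peaks (blue, the members) and treated peaks (orange). Error bars are 95% Wilson intervals; the members' share falls from 50.7% in the narrowest class to 0.359% over 3000 to 4000 bp and is 2.94% over 6000 to 7000 bp.

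The distance part of the rule decided few cases. Only 26 filtered untreated peaks had a treated peak at up to 1000 bp that did not overlap them. Just inside the rule were members on chromosome 15 (101069264 to 101070025 and 98635578 to 98636673) and chromosome 10 (92545615 to 92546638), with a treated peak 1047, 1048 and 1071 bp away. Just outside were peaks on chromosomes 13 (95655076 to 95656019), 6 (113421247 to 113422352) and 11 (84335969 to 84336813), at 929, 846 and 807 bp. At the width limit, the widest members of 6667, 6608 and 6198 bp stood against excluded peaks of 7028, 7124 and 7458 bp on chromosomes 5, 10 and 11.

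The distance from a member to the nearest treated H3K4me3 peak had a median of 30.9 kb, with quartiles of 10.9 and 82.1 kb and a maximum of 2692.5 kb. From a treated-only peak to the nearest untreated peak the median was 28.9 kb. Shared peaks lay a median of 26.0 kb from the next peak of their own list, with quartiles of 10.3 and 62.6 kb. This is spacing within a list and not distance to the other list. The members' lower quartile was near it, while their upper quartile was longer. Over 100 kb from another peak of the untreated list were 19.7% (17.0 to 22.6) of members and 14.7% (14.1 to 15.2) of shared peaks. A treated peak was within 5000 bp of 82 members (10.7%, 8.74 to 13.1), while 150 members (19.7%, 17.0 to 22.6) were over 100 kb from any treated peak.

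The 20 widest members were spread over 14 chromosomes, and 15 of them lay over 20 kb from any treated H3K4me3 peak. Widest of all was chromosome 9, 56262107 to 56268773 (6667 bp), with the nearest treated peak 84.9 kb away. The next was chromosome 2, 50998396 to 51005003 (6608 bp), which lay 784.1 kb from a treated peak and 784.2 kb from any other untreated one. Chromosome 3, 45179851 to 45186048 (6198 bp), was 299.1 kb from a treated peak and 1064.9 kb from another untreated peak. These regions were single wide peaks with no other H3K4me3 peak nearby in either list.

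Other single wide members lay between 51.8 and 2692.5 kb from a treated peak. Chromosome 18, 11050195 to 11056266 (6072 bp), had its nearest treated peak 183.2 kb away. The member at chromosome 14, 84841850 to 84847000 (5151 bp), was the farthest of all 763 from a treated peak, at 2692.5 kb from a treated and 2692.6 kb from another untreated peak. Chromosome 16, 24447802 to 24451992 (4191 bp), lay 51.8 kb from a treated peak, and chromosome 1, 185856515 to 185860531 (4017 bp), 404.1 kb. The latter had another untreated peak 12.0 kb away, which thus had no treated partner either.

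A few of the widest members stood beside a peak that was kept. At chromosome 11, 96603637 to 96609500 (5864 bp), a treated peak was 5.61 kb and another untreated peak 5.67 kb away. Chromosome 6, 88146072 to 88150723 (4652 bp), was much the same, at 5.64 and 5.89 kb. The closest was chromosome 10, 80886763 to 80890489 (3727 bp), with a treated peak at 1.64 kb, the only 1 of the 20 within 5 kb of a treated peak. Near chromosome 3, 65330997 to 65334848 (3852 bp), and chromosome 11, 108781065 to 108784860 (3796 bp), treated peaks lay 9.44 and 8.87 kb away where the next untreated peak was 55.2 and 88.0 kb off, so those treated peaks had no listed untreated counterpart. The remaining single ones were 25.4 to 33.9 kb from a treated peak. They had widths of 3843 bp on chromosome 15 (35225197 to 35229039), 3743 bp on chromosome 13 (49703005 to 49706747) and 3623 bp on chromosome 3 (79332607 to 79336229).

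**Figure D2:**
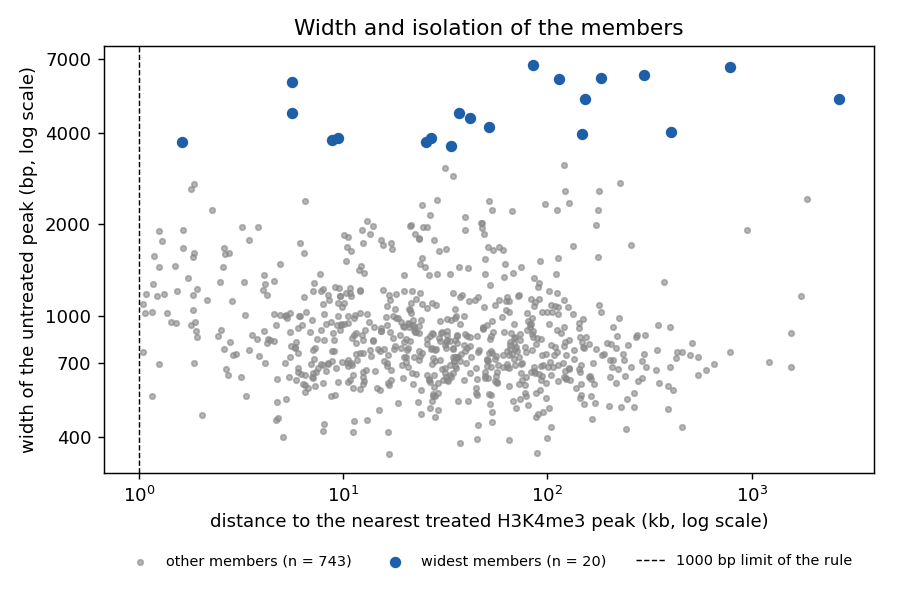
Width of each of the 763 members (y axis, bp, log scale) against its distance to the nearest treated H3K4me3 peak (x axis, kb, log scale); the 20 widest are blue and the dashed line is the 1000 bp limit. The widest members spread from 1.64 to 2692.5 kb, and most of the other members are under 2000 bp at any distance.

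Some wide members adjoined each other, and joined they were longer than any listed peak. No listed H3K4me3 peak was wider than 9030 bp in treated or 9151 bp in untreated cells. The 5 other widest members belonged to 3 adjoining pairs. On chromosome 19 peaks of 4661 and 4477 bp were 32 bp apart and spanned 12079243 to 12088412, or 9170 bp. On chromosome 17 peaks of 6027 and 3141 bp were 414 bp apart and spanned 15959202 to 15968783, or 9582 bp. On chromosome 13 peaks of 5151 and 3961 bp were 597 bp apart and spanned 63373404 to 63383112, or 9709 bp. All 3 joined spans exceed the widest listed peak, so a treated peak over the whole span would lie outside the range of the lists. Whether such peaks were removed from the treated list was not tested.

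For single wide members the same limit is farther off. Among 580 untreated peaks of over 5000 to 7000 bp that overlapped a treated peak, the median ratio of treated to untreated width was 0.912, and its 95th percentile was 1.17. A partner of the widest member would have to be more than 1.35 times as wide to pass the widest treated peak. Of the 580, 8 had a ratio at or above this. Separately counted, 4 of the 580 had a treated peak over 8000 bp. These are listed pairs only, and a partner above the range would not be counted among them.

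Members within 1000 bp of another untreated peak were 25 in all, and for 24 of them the neighbour was itself a member, in 12 pairs. The rule favours this, since a neighbour with a treated partner would often bring that partner within 1000 bp. Apart from the 3 wide pairs, the joined spans ran from 1250 to 3087 bp. The tightest was chromosome 2, 157201273 to 157202522, where peaks of 593 and 652 bp were 5 bp apart. A pair of 882 and 680 bp on chromosome 5, 79796433 to 79798185, was 1563.1 kb from the nearest treated peak. On chromosome 6, 4437630 to 4440716, peaks of 995 and 1973 bp lay 119 bp apart, and no treated peak was within 14.1 kb.

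Groups of at least 3 members with no more than 20 kb between neighbours numbered 3 and held 9 members. On chromosome 13, 63352113 to 63383112, members of 2239, 5151 and 3961 bp lay in 31000 bp with no treated H3K4me3 peak and no H3K27me3 peak of either condition. The nearest treated H3K4me3 peak was 148.5 kb away, and the last 2 members are the wide pair described above. The member of 2239 bp had another untreated H3K4me3 peak 3041 bp away. That peak had no treated peak within 1000 bp either, and was left out of the members by the filters. Elsewhere on chromosome 13, at 21903926 to 21923754, members of 521, 719 and 644 bp were 22.9 kb from a treated peak. On chromosome 7, 77470337 to 77512161, members of 813, 1389 and 3069 bp shared the stretch with 1 other untreated peak, 1 treated H3K4me3 peak and 1 treated H3K27me3 peak.

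The nearest other untreated peak of a member was sometimes a member too, also at gaps of over 1000 bp. With neighbours over 1000 bp away, this held for 8.13% (6.37 to 10.3) of 738 members, against 4.43% (4.12 to 4.76) of 15772 shared peaks. It was 10.8% (5.58 to 19.9) for neighbours at over 1000 to 5000 bp, 8.16% (5.09 to 12.8) at over 5000 to 20000 bp, 6.92% (4.61 to 10.3) at over 20000 to 100000 bp, and 9.33% (5.64 to 15.1) at over 100 kb. These intervals overlapped each other. A treated peak, listed at up to 9030 bp wide, can lie within 1000 bp of both neighbours. The rule can thus still link neighbours over 1000 to 5000 bp apart. Members and shared peaks were not matched for width in this comparison. Members that are each other's nearest peaks are counted from both sides.

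The spacing of members beside shared peaks of like width differed between width classes. Among peaks of up to 1000 bp, the median distance to the next untreated peak was 34.8 kb for 525 members and 24.9 kb for 1755 shared peaks. Over 100 kb from another peak were 22.1% (18.8 to 25.8) of these members and 15.3% (13.7 to 17.1) of the shared peaks. In the class of over 1000 to 2000 bp the median was 17.0 kb for 193 members and 23.0 kb for 5312 shared peaks. Within 5000 bp of another untreated peak were 21.2% (16.1 to 27.5) of these members, against 14.1% (13.2 to 15.1). Over 2000 to 7000 bp these shares were 24.4% (14.2 to 38.7) of 45 members and 10.1% (9.53 to 10.8) of 9080 shared peaks. The 11 members behind the first share include both peaks of each of the 3 adjoining wide pairs described above, a closeness that the rule favours. In that widest class the median distance was nonetheless longer for members, at 33.6 against 28.2 kb, and 22.2% (12.5 to 36.3) of members and 14.7% of shared peaks were over 100 kb from another untreated peak. Over all widths 99 members (13.0%, 10.8 to 15.5) and 11.7% (11.2 to 12.2) of shared peaks had another untreated peak within 5000 bp. Treated-only peaks of over 1000 to 2000 bp resembled the members, with 25.1% (21.3 to 29.3) within 5000 bp of another treated peak and a median distance of 15.1 kb. Over 2000 to 7000 bp 27.9% (18.7 to 39.6) of 68 treated-only peaks were within 5000 bp and 20.6% (12.7 to 31.6) over 100 kb away. Both shares were near those of the members, so neither is particular to them. The median distance in that class was 17.9 kb for treated-only peaks, shorter than for members.

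**Figure D3:**
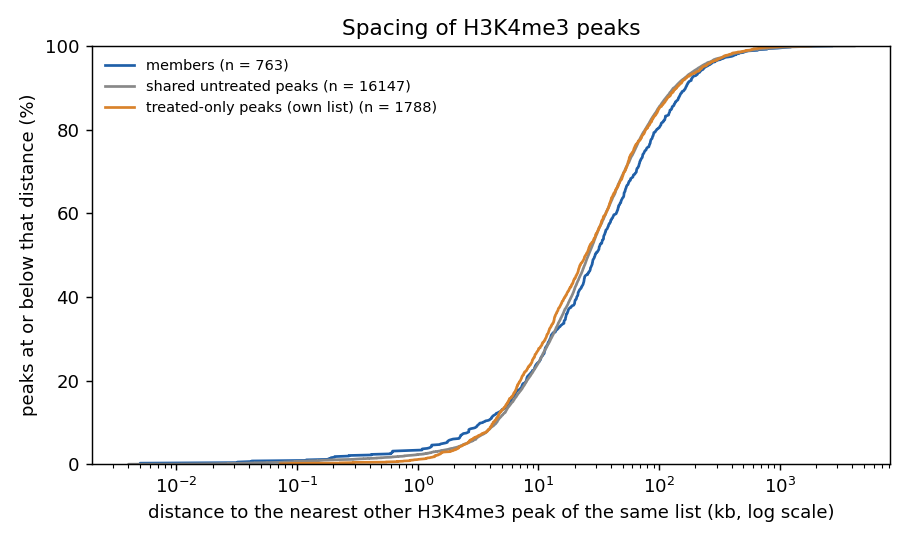
Cumulative share of peaks (y axis, percent) by distance to the nearest other H3K4me3 peak of the same list (x axis, kb, log scale) for members, shared untreated peaks and treated-only peaks. The curves lie close together, with medians of 29.5, 26.0 and 24.7 kb, and the members' curve runs to the right of the others above about that distance.

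Shared peaks next to a member were for the most part not narrower in treated cells. The nearest untreated peak within 5000 bp of a member was a peak that overlapped a treated one in 66 cases. The median of their log2 width ratios, treated over untreated, was 0.08, and 26 of the 66 (39.4%) were narrower in treated cells. For all 16356 untreated peaks that overlapped a treated peak the median was -0.02, and 52.8% were narrower. A peak that had grown over the member would not be among them, because its member would then have a partner.

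The nearest treated H3K4me3 peak was a treated-only peak for 79 members (10.4%, 8.39 to 12.7). Counted with treated peaks of any width or input overlap, the nearest one had no untreated peak within 1000 bp for 84 members (11.0%, 8.98 to 13.4), against 9.98% (9.55 to 10.4) of all treated peaks, and this wider count is used in the rest of the paragraph. Among the 82 members with a treated peak within 5000 bp the number was 12 (14.6%, 8.57 to 23.9). These 12 were singled out after their values were seen. The widest, on chromosome 12 at 34651210 to 34653921 (2712 bp), had a treated peak of 8939 bp 1871 bp away at 34640400 to 34649338. At chromosome 4, 99326645 to 99327592 (948 bp), a treated peak of 2915 bp lay 1521 bp away. At chromosome 10, 84222834 to 84223580 (747 bp), one of 2834 bp lay 2893 bp away, with no other untreated peak within 136.5 kb. At chromosome 1, 165291412 to 165292875 (1464 bp), one of 2426 bp lay 1507 bp away, and at chromosome 5, 33773388 to 33774413 (1026 bp), one of 2392 bp lay 1378 bp away. The treated peak was wider than the member at 11 of the 12 places. The exception was on chromosome 17, where a member of 629 bp (36294692 to 36295320) faced a treated peak of 562 bp. How often a treated peak is wider than a member elsewhere was not counted. The median width was 829 bp for members, 860 bp for treated-only peaks under the filters and 2026 bp for all treated peaks.

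The members were found on every autosome and on X. The share ranged from 2.69% (1.64 to 4.40) on chromosome 19, with 15 of 557 peaks, to 7.51% (5.49 to 10.2) on chromosome 18, with 37 of 493. The intervals of 16 of the 20 chromosomes took in the 4.51% of all chromosomes. Those of chromosomes 11 (3.14%, 2.32 to 4.23) and 19 lay below it and those of chromosomes 3 (5.95%, 4.56 to 7.74) and 18 above it. Among peaks of up to 1000 bp the share ranged from 14.1% (7.58 to 24.6) on chromosome 19 to 31.0% (21.4 to 42.5) on chromosome 14. It was 29.4% (20.8 to 39.8) on chromosome 18, 26.6% on chromosome 3 and 17.6% (12.5 to 24.1) on chromosome 11. In this width class the intervals of all 20 chromosomes took in the overall 23.0%. They rest on fewer peaks, for example 64 on chromosome 19 against 557 at all widths, and are wider. Chromosomes 11 and 19 still stood below 23.0% and chromosomes 3 and 18 above it. The intervals thus cannot tell whether width accounts for the differences between chromosomes. Chromosome 18 also had the highest share of treated-only peaks, 12.7% (10.1 to 15.8). On X the member share was 3.24% (2.06 to 5.07) and the treated-only share 6.46% (4.72 to 8.77).

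**Figure D4:**
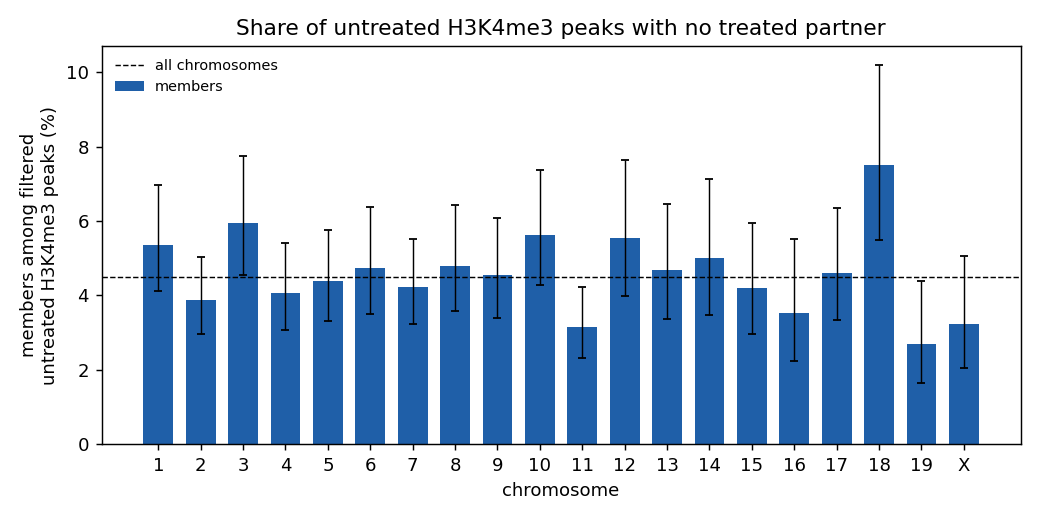
Share of filtered untreated H3K4me3 peaks that were members (y axis, percent) on each chromosome (x axis), with 95% Wilson intervals and the share over all chromosomes as a dashed line at 4.51%. Chromosome 18 is highest at 7.51% and chromosome 19 lowest at 2.69%; chromosome Y, with no member among 4 peaks, is not drawn.

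After the member on chromosome 14, those farthest from a treated H3K4me3 peak were on chromosome X. A member of 2431 bp at 80194127 to 80196557 was 1874.5 kb from a treated H3K4me3 peak, and a member of 1163 bp at 80059539 to 80060701 was 1739.9 kb from one. These 2 were each other's nearest untreated peaks, 133.4 kb apart.

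H3K27me3 was read from separate libraries that the choice of members did not use. Only 11 members overlapped an H3K27me3 peak of either condition, and none overlapped one in both. How many shared peaks overlapped one in both was not counted, so this absence cannot be read as particular to the members. After H3K27me3 peaks that met an input peak were left out, 999 untreated and 587 treated H3K27me3 peaks remained. Untreated H3K27me3 peaks were met by 7 of the 763 members (0.917%, 0.445 to 1.88) and treated ones by 4 (0.524%, 0.204 to 1.34). Among shared peaks the shares were 2.50% (2.27 to 2.75) and 0.799% (0.673 to 0.948). The intervals of members and shared peaks were apart for untreated H3K27me3 and overlapped for treated H3K27me3. With 1 library per list this compares these libraries only.

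The difference lay in peaks up to 2000 bp. In the class of over 1000 to 2000 bp an untreated H3K27me3 peak was met by 1 of 193 members (0.518%, 0.0915 to 2.88) and by 4.76% (4.22 to 5.37) of shared peaks. Up to 1000 bp the numbers were 3 of 525 (0.571%, 0.195 to 1.67) and 2.34% (1.73 to 3.15). Over 2000 bp the order was the reverse, with 3 of 45 members (6.67%, 2.29 to 17.9) and 1.21% (1.01 to 1.46) of shared peaks. Among treated-only peaks an untreated H3K27me3 peak was met by 19 of 1269 (0.961 to 2.33%) up to 1000 bp, 5.10% (3.42 to 7.54) over 1000 to 2000 bp and 8.82% (4.11 to 17.9) over 2000 bp. Their interval was apart from that of the members over 1000 to 2000 bp alone, and over 2000 bp both sets stood above shared peaks. In treated cells 0 of 45 members over 2000 bp overlapped an H3K27me3 peak. The numbers were 38 of 9080 shared peaks (0.419%, 0.305 to 0.574) and 2 of 68 treated-only peaks (2.94%, 0.810 to 10.1). For the members the Wilson upper limit is 7.87%, and 3 counts, the limit that a count of 0 allows, are 6.67% of 45. Both limits lie above the share of shared peaks, so 45 peaks are too few to set the members apart here.

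Median distances to H3K27me3 peaks were also longer for members. An untreated H3K27me3 peak was within 5000 bp of 17 members (2.23%, 1.40 to 3.54) and of 3.81% (3.53 to 4.12) of shared peaks, and a treated one within 5000 bp of 7 members (0.917%, 0.445 to 1.88) and of 1.67% (1.48 to 1.88) of shared peaks. The median distance from a member to an untreated H3K27me3 peak was 848.6 kb, against 536.2 kb from a shared and 583.7 kb from a treated-only peak. To a treated H3K27me3 peak it was 1403.1 kb, against 1060.4 and 1113.2 kb.

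**Figure D5:**
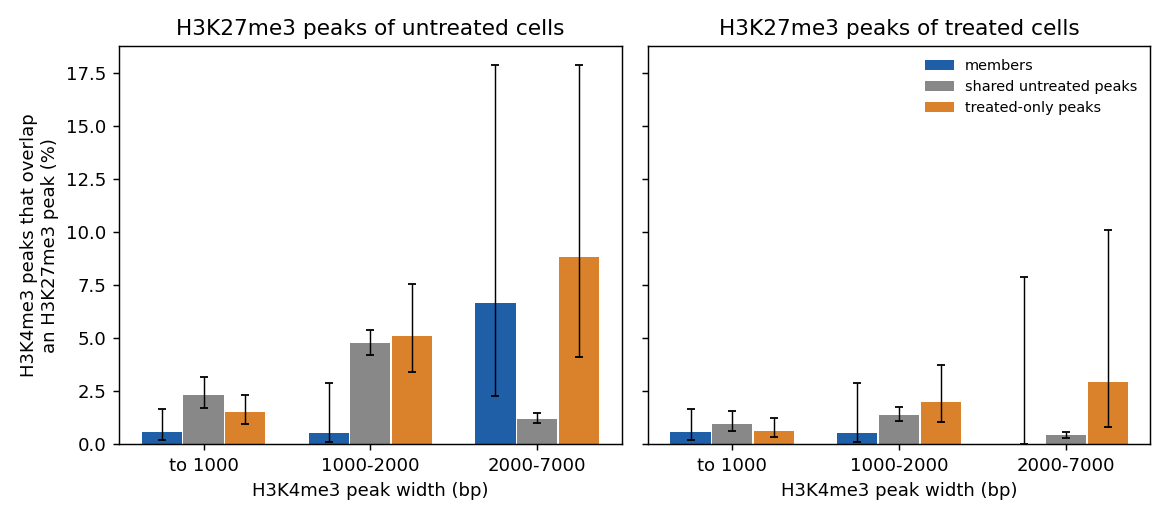
Share of H3K4me3 peaks that overlap an H3K27me3 peak (y axis, percent, 95% Wilson intervals) by H3K4me3 width (x axis, bp) for members, shared untreated peaks and treated-only peaks, with the H3K27me3 list of untreated cells on the left and of treated cells on the right. Members are the lowest bar over 1000 to 2000 bp on the left (0.518%), and the intervals over 2000 bp are wide because only 45 members are that wide.

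At the 7 members with an untreated H3K27me3 peak both marks were listed in untreated cells, and neither was listed at the member in treated cells. For H3K4me3 this is the rule itself, and the treated H3K27me3 list was the shorter, with 587 against 999 peaks. At chromosome 15, 76347964 to 76350581 (2618 bp), an H3K27me3 peak of 726 bp lay wholly inside the member, and a treated H3K4me3 peak was 1.80 kb away. At chromosome 4, 133806807 to 133808112 (1306 bp), an H3K27me3 peak of 762 bp shared 524 bp with the member. At chromosome 11, 82765270 to 82766064 (795 bp), one of 439 bp shared 340 bp. At chromosome 11, 108781065 to 108784860 (3796 bp), one of 284 bp shared 94 bp at the member's end. On chromosome 3 the member of 6198 bp at 45179851 to 45186048 held one of 265 bp. At chromosome 12, 102137183 to 102137871 (689 bp), one of 242 bp lay inside the member. The last, at chromosome 13, 55522396 to 55523027 (632 bp), touched its H3K27me3 peak by only 4 bp.

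At the 4 members with a treated H3K27me3 peak, H3K4me3 was listed in untreated and H3K27me3 in treated cells. The H3K4me3 part again follows from the rule. At chromosome 4, 99326645 to 99327592, an H3K27me3 peak of 404 bp lay inside the member of 948 bp, beside the treated H3K4me3 peak of 2915 bp described above. At chromosome 15, 98635578 to 98636673 (1096 bp), one of 371 bp shared 191 bp, and a treated H3K4me3 peak was 1048 bp away, just outside the distance limit. At chromosome 3, 95776734 to 95777310 (577 bp), one of 160 bp shared 80 bp. At chromosome 7, 77470337 to 77471149 (813 bp), one of 263 bp shared 8 bp. These H3K27me3 peaks were narrower than the average sheared fragment of 600 bp, and the H3K27me3 lists as a whole had median widths of 211.5 bp in untreated and 149 bp in treated cells, beside 142 and 146 bp for the input lists.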

How the data were processed

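The 6 libraries were ChIP-seq for H3K4me3 and H3K27me3 and input DNA from 6TCF-treated and untreated MEFs on day 6, 1 library per group. Each library has 1 deposited peak list, with chromosome, start and end in mm9. Per the submitters' processing notes the tools were CASAVA 1.7, Bowtie2 2.2.5, MACS 1.4.3 and HOMER, with no role or order. The caller's threshold, its control and the read depth were not given in the sources used here.

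Starts were made 1-based. Distances are the bases between peaks, and an overlap needs at least 1 bp. H3K27me3 peaks that overlap a peak of either input list were left out. Analysis used Python 3.11.15 with numpy 2.4.6, pandas 2.3.3 and scipy 1.17.1. Distances were checked against bedtools 2.31.1, with 0 differences. The distance step was also run against a copy of the untreated list with 200 isolated peaks removed and the others shifted slightly. It found 200 of 200, which this setting ensures, so the run checks the code and not the choice of members in real data. Intervals are 95% Wilson.

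Named regions are the 20 widest members, the 5 farthest from a treated peak, members that overlap H3K27me3, groups of at least 3 members and peaks at the limits of the rule. The adjoining pairs and the places next to a treated-only peak were added after their values were seen. The members and lists were chosen with earlier results of these data known. A gene-start share and GC content were planned and not analysed here, since no annotation or genome of mm9 was used.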

Additional observations from a re-analysis of the deposited data

How the results depend on the processing

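With a partner defined by overlap or within 500, 2000 or 5000 bp the number of members ranged from 681 to 789, and with equal numbers of widest peaks in both lists it was 1121 beside 1176 treated-only peaks. Keeping only members of at least 1000 bp left 238, with a median width of 1366 bp. The share overlapping a treated H3K27me3 peak was 0.147% (1 of 681) with partners within 5000 bp. The share within 5000 bp of another untreated peak was 9.75% and 4.70% with partners within 2000 and 5000 bp, and 6.03% and 24.4% with gaps of 2000 and 10000 bp; a longer partner distance removes members beside kept peaks by its construction. Of all 53 values recomputed, 45 stayed within 1.5 times of a count or inside the interval of a share or median. Many of the 45 could hardly have moved. Keeping input-overlapping peaks or peaks of any width gave 770 and 773 members beside 763, and partners within 500 bp gave 773. The 1121 members with equal lists fell just under the limit of 1.5 times. At least 19 of the 20 widest members were members under every alternative run. Only the partner distances of 2000 and 5000 bp could have removed any of them, so the other alternatives are no check of these peaks. These 8 counts of the widest members are among the 45. No paired analysis was possible because each group held 1 library. The gene-start share and GC content were not run. Unknown depth limits all counts of narrow peaks.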
